A study of Mus musculus with 25 samples.

Results

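The liver levels of 9 genes were followed over 6 groups of mice: 7 aldo-keto reductase genes of the 1C subfamily (Akr1c6, Akr1c12, Akr1c13, Akr1c14, Akr1c18, Akr1c19 and Akr1c20) and the sulfotransferase genes Sult3a1 and Sult1c2. They are 9 of the 19938 genes that the platform annotation names, each with 1 probe set that carries a single symbol. The genes had been chosen with their log2 signals over the 6 groups in view, so their levels and differences are descriptions and carry no p-value. All 9 had a mean signal above the filter on dim genes (3.33 log2, the level that 20% of named probe sets do not reach). Sult3a1 was the dimmest of them, with group means between 2.76 and 4.45.

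The mice, of strain FVB;129, carried Cre recombinase driven in hepatocytes by the promoter of the albumin gene, together with loxP sites in the genes of Rb, p53 or both. The labels give the status of each gene, and the groups are called WT, p53KO, RbKO and DKO (both deleted); which transgenes and loxP sites the WT animals carried is not given. Diethylnitrosamine (DEN) is a carcinogen that liver enzymes turn into a compound that alkylates DNA. Mice 14 days old received 20 mg/kg of it by intraperitoneal injection, and frozen liver from 24 h later was profiled. Without DEN there were 3 WT and 3 DKO arrays. After DEN there were 5 arrays each of WT, p53KO and DKO, and 4 of RbKO. The untreated animals are labelled as having no treatment, whereas the series text speaks of saline. Nothing states that the replicates were separate animals, so errors and p-values cover the variation among these arrays only, which may be technical, and their number limits the precision.

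Aldo-keto reductases of the 1C subfamily use NADPH or NADH to reduce, or in reverse to oxidise, ketone groups on steroids, prostaglandins and foreign aldehydes. Akr1c6 is a 17beta-hydroxysteroid dehydrogenase, Akr1c14 a 3alpha-hydroxysteroid dehydrogenase, and Akr1c18 the 20alpha-hydroxysteroid dehydrogenase that inactivates progesterone. Cytosolic sulfotransferases move a sulfate group from the donor PAPS to steroids, phenols and amines, which makes them more soluble. Sult3a1 is known in adult mouse liver as a gene of higher level in females, and Sult1c2 belongs to the family branch that sulfates phenols.

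The 7 Akr1c genes lie side by side on mouse chromosome 13, in the order Akr1c14, Akr1c18, Akr1c13, Akr1c19, Akr1c12, Akr1c6 and Akr1c20, per RefSeq (GRCm38.p6); Sult3a1 is on chromosome 10 and Sult1c2 on chromosome 17. RefSeq promoter sequences were at hand for 8 of the 9 genes. The 250 bases before the start are given for Akr1c13, Akr1c12 and Akr1c19, which share a repeated word. They are also given for Akr1c18, whose signals, like those of Akr1c19, spread widely over the groups but whose promoter lacks that word. They lie at chr13:4190937-4191186 on the + strand, chr13:4279400-4279649 on the - strand, chr13:4233490-4233739 on the + strand and chr13:4150647-4150896 on the - strand. Capitals mark CATTAG.
Akr1c13: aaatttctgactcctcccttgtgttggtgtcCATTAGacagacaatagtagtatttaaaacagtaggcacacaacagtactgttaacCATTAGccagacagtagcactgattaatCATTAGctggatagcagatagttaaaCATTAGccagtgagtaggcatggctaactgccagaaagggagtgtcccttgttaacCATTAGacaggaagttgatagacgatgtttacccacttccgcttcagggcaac
Akr1c12: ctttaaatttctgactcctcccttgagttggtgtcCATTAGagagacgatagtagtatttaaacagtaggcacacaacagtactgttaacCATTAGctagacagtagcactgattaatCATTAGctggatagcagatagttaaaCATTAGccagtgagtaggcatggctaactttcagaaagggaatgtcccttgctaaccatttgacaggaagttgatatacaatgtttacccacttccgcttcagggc
Akr1c19: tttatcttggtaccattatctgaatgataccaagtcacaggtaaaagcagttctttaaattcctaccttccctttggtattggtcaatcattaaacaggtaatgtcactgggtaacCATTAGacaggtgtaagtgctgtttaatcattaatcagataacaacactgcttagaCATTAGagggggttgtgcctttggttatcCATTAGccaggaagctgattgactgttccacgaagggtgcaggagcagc
Akr1c18: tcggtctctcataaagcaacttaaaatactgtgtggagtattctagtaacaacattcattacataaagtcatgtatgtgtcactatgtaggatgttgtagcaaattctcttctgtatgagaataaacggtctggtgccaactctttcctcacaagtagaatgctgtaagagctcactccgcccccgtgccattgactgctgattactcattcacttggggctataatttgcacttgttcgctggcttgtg

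CATTAG, searched on both strands with its reverse complement CTAATG, occurred 5 times before Akr1c13, 4 times before Akr1c12 and 3 times before Akr1c19. This word was chosen after the letters of these promoters had been seen. It occurred in 6.36% of the 32851 promoters of the same length in the table, and 3 times or more in 8 of them (0.0244%), which include these 3 genes. Akr1c6 held it 1 time, and Akr1c14, Akr1c18, Sult3a1 and Sult1c2 did not hold it in this window. The Akr1c12 and Akr1c13 promoters were identical at 92.5% of aligned positions, against 60.3% for Akr1c13 with Akr1c19. TGTTTAC, the core letters of forkhead factor sites, was found 1 time before each of Akr1c12 and Akr1c13 and in 3.17% of all promoters. TTCNNNGAA, the core of STAT sites, was found 1 time before Akr1c19 and Sult3a1 and in 7.02% of promoters. Of the 6 motifs searched, AGGTCA and TGACNNNGC were in none of the 8 promoters at hand, and in 14.0% and 10.2% of all promoters. TATAAA was found 1 time, before Akr1c6, and in 12.4% of all promoters. These are matches of letters and were not tested as binding sites. Because Akr1c12 and Akr1c13 are close copies, it is uncertain how far their probe sets also read each other's transcripts.

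By their names in the labels, the arrays belong to 3 sets, which hold 16, 4 and 5. Set 2 (untreated WT replicate 3, DEN WT replicates 4 and 5, DEN RbKO replicate 4) stood apart, with a mean of 46.6 on the first principal component (25.8% of the variance) against -11.8 in set 1 and 0.641 in set 3. Every difference below therefore comes from a fit with the set as a term, and values within set 1, the set that holds all groups, are given for many of them. Rb1 signals were 4.76 to 5.02 in untreated DKO and 5.30 to 5.76 in untreated WT. After DEN they were 5.04 to 6.02 in WT, 5.55 to 6.28 in RbKO and 5.18 to 5.82 in DKO, which overlap. Which part of Rb1 the probe set reads relative to the deletion is not known, so it does not check the labels. The mean of 4 hepatocyte markers was 12.24 to 12.57 on every array. Xist, the RNA of the silenced X chromosome, was at 9.70 to 10.55 on 8 arrays and at 2.87 to 4.15 on the other 17. The high arrays were 2 of 3 untreated WT, 2 of 5 DEN p53KO, 2 of 4 DEN RbKO and 2 of 5 DEN DKO, with 0 of 3 untreated DKO and 0 of 5 DEN WT. The labels do not give the sexes, and Xist thus moves with several of the groups. The 5 markers of neutrophils and myeloid precursors averaged 6.21 to 7.13 on the untreated DKO arrays and 4.51 to 4.95 on the untreated WT arrays. The mean of 5 endothelial markers was 6.03 to 6.31 in DEN DKO, against 6.92 to 7.08 in untreated DKO and 6.56 to 6.99 in DEN WT. In whole liver, fewer cells of a type and less RNA per cell cannot be told apart. The part of these measures in the results below was not tested, apart from the fits with Xist that are cited.

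**Figure D1:**
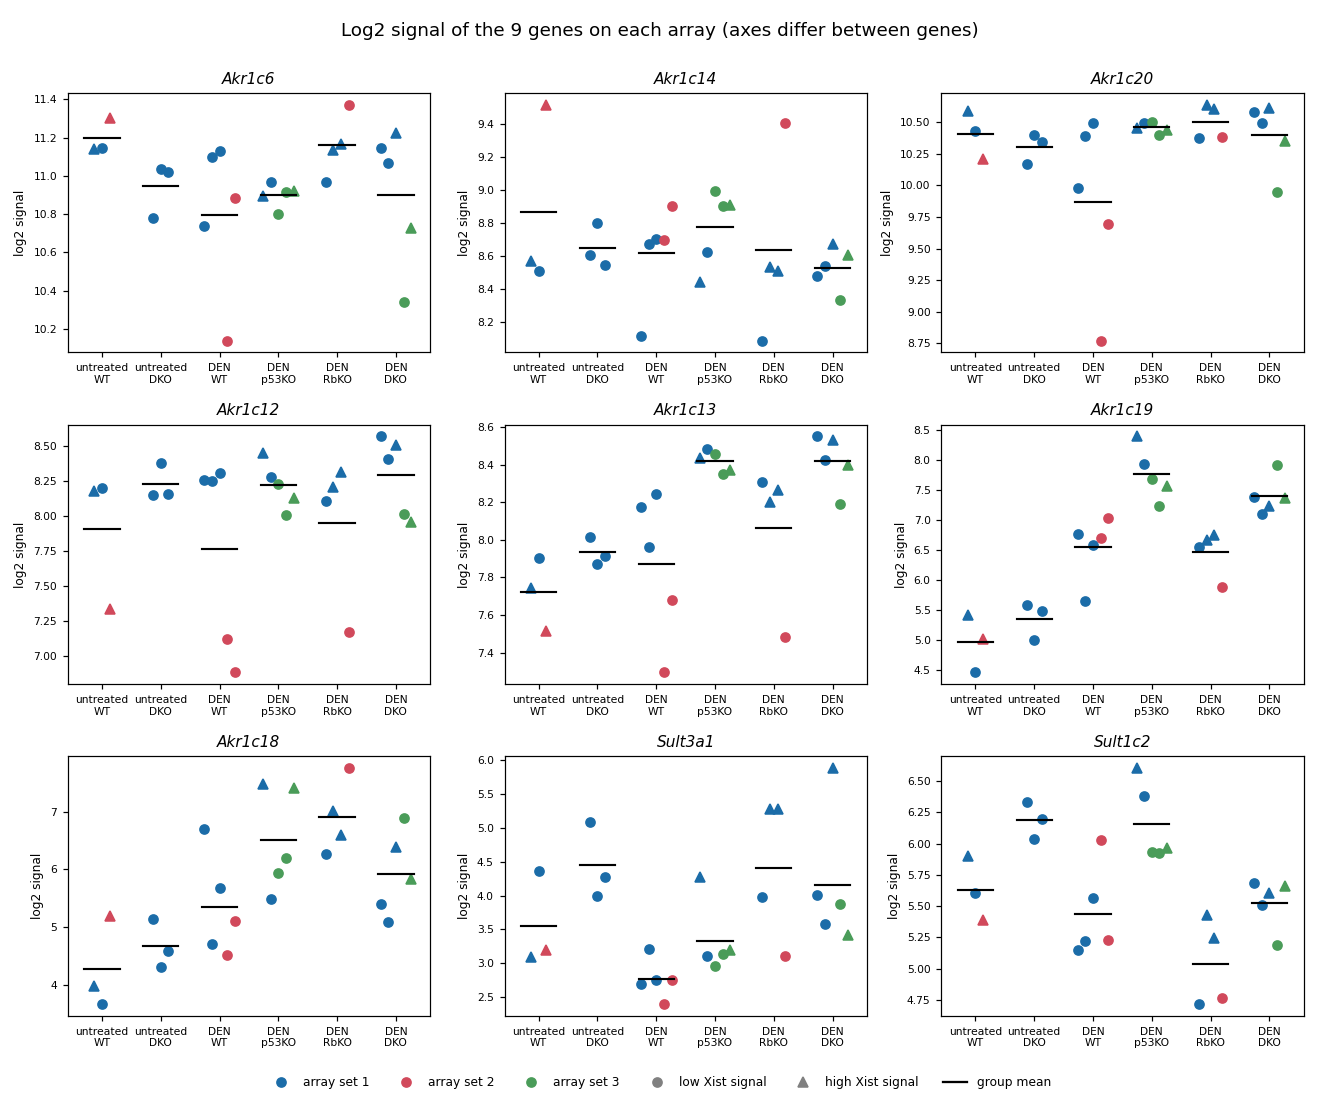
Log2 signal of each of the 9 genes on each of the 25 arrays, by group; colour gives the array set, triangles mark the 8 arrays with high Xist, and the line is the group mean. Akr1c19 lies at 5.66 or more on all arrays after DEN and at 4.46 to 5.58 without it, while the Akr1c12 signals of the 4 arrays of set 2 lie below the rest.

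Akr1c19, which codes for an enzyme known to oxidise a range of alcohols and hydroxysteroids, had the largest differences between DEN and untreated livers among the 9 genes in the fit to all arrays, in WT and in DKO; within set 1 the WT difference of Akr1c18 was larger. Its log2 signals were 5.42, 4.46 and 5.01 on the untreated WT arrays and 6.76, 5.66, 6.57, 6.70 and 7.03 on the DEN WT arrays, so that the groups did not overlap. The difference in WT was 1.58 (SE 0.28), a 2.99-fold higher signal, with 1.39 within set 1 and 1.86 within set 2. In untreated DKO livers the signals were 5.58, 4.99 and 5.48, and after DEN they were 7.38, 7.10, 7.22, 7.92 and 7.37. Here too the groups lay apart, by 2.10 (SE 0.29), which is 4.28-fold. The DEN responses of the genotypes differed by 0.52 (SE 0.40), which is little more than its error.

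After DEN, the genotypes split into a higher and a lower pair for Akr1c19. The DEN p53KO arrays read 8.39, 7.93, 7.68, 7.23 and 7.56, all above the highest DEN WT array, and the DEN DKO arrays did so as well. The DEN RbKO arrays, at 6.55, 6.67, 6.75 and 5.87, lay within the DEN WT range. The differences from DEN WT were 1.30 (SE 0.30) in p53KO, 0.92 (SE 0.27) in DKO and -0.08 (SE 0.26) in RbKO. Within set 1 they were 1.83, 0.90 and 0.32. The RbKO value thus changed sign with the array of set 2, and without DEN RbKO replicate 4 it was 0.26. Ordered by group mean, Akr1c19 ran from 7.76 ± 0.43 (SD, n = 5) in DEN p53KO through 7.40 ± 0.31 in DEN DKO (n = 5), 6.55 ± 0.52 in DEN WT (n = 5), 6.46 ± 0.40 in DEN RbKO (n = 4) and 5.35 ± 0.31 in untreated DKO (n = 3) to 4.96 ± 0.48 in untreated WT (n = 3). Ranges of neighbours in that order were apart only between DEN DKO and DEN WT and between DEN RbKO and untreated DKO.

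Akr1c18, the 20alpha-hydroxysteroid dehydrogenase, ranged from 3.66 to 7.75 over the arrays. It read 3.98, 3.66 and 5.18 in untreated WT and 6.70, 4.71, 5.67, 4.52 and 5.11 in DEN WT, and these groups overlapped. The difference of 1.05 (SE 0.48) was 1.87 within set 1 but -0.37 within set 2. Untreated DKO livers read 5.14, 4.30 and 4.58 and DEN DKO livers 5.40, 5.09, 6.39, 6.88 and 5.84, a difference of 1.09 (SE 0.51). The highest group mean was that of DEN RbKO, 6.91 ± 0.64 (SD, n = 4), with arrays at 6.27, 7.02, 6.60 and 7.75. Against DEN WT the RbKO difference was 1.61 (SE 0.44), with 0.93 within set 1 and 2.94 within set 2. DEN p53KO read 7.47, 5.49, 5.94, 6.19 and 7.41, which is 1.04 (SE 0.51) above DEN WT. That value was 0.39 without DEN p53KO replicate 1 and 1.56 without DEN WT replicate 1. The 2 p53KO arrays at over 7 were those with high Xist. With Xist as a covariate the RbKO difference was 1.30, and the DEN difference in WT was 1.52 (SE 0.50).

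Akr1c13 moved over a narrower range. It read 7.74, 7.90 and 7.51 in untreated WT and 8.18, 7.96, 8.25, 7.29 and 7.68 in DEN WT, a difference of 0.19 (SE 0.11). Untreated DKO livers read 8.01, 7.87 and 7.91, below all DEN DKO arrays at 8.55, 8.42, 8.53, 8.19 and 8.40, with a difference of 0.54 (SE 0.12). The DEN p53KO arrays, at 8.44, 8.48, 8.46, 8.35 and 8.37, lay above every DEN WT array. They were 0.39 (SE 0.12) higher, and DEN DKO was 0.36 (SE 0.11) higher. Akr1c12, its close copy, differed mainly between the array sets: it read 6.89 to 7.34 on the 4 arrays of set 2 and 7.95 to 8.57 on the other 21. Its 6 differences between groups lay between -0.07 and 0.24.

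The other 3 genes of the cluster were bright and differed little between groups in set 1. Akr1c6, the 17beta-hydroxysteroid dehydrogenase, lay between 10.14 and 11.37, Akr1c20 between 8.77 and 10.64, and Akr1c14, the 3alpha-hydroxysteroid dehydrogenase, between 8.08 and 9.52. In WT the DEN differences were -0.39 (SE 0.17) for Akr1c6, -0.50 (SE 0.18) for Akr1c20 and -0.29 (SE 0.16) for Akr1c14. Within set 1 they were -0.16, -0.22 and -0.04, and within set 2 they were -0.79, -0.98 and -0.72. DEN WT replicate 4 was the lowest array for both Akr1c6 (10.14) and Akr1c20 (8.77). In DKO the same differences were 0.09 (SE 0.18), 0.18 (SE 0.20) and -0.19 (SE 0.17). Akr1c20 was 0.54 (SE 0.17) higher in DEN RbKO than in DEN WT, with 0.25 within set 1 and 1.15 within set 2.

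Sult3a1 was low after DEN in WT. The DEN WT arrays read 2.70, 3.21, 2.75, 2.40 and 2.76, all below every DEN DKO array, at 4.01, 3.58, 5.88, 3.88 and 3.42. The DEN RbKO arrays read 3.98, 5.27, 5.28 and 3.11, and the DEN p53KO arrays 4.27, 3.11, 2.97, 3.14 and 3.19. All DEN WT arrays lay below the filter of 3.33, which the gene passed through the groups with higher signals, so differences from DEN WT depend on values near background and their size is uncertain. By the fit, Sult3a1 was 1.54 (SE 0.38) higher in RbKO than in DEN WT, 1.37 (SE 0.40) higher in DKO and 0.69 (SE 0.44) higher in p53KO. Without DEN DKO replicate 3, the highest array, the DKO value was 0.84. Untreated WT read 3.09, 4.36 and 3.19 and untreated DKO 5.09, 4.00 and 4.27. The DEN difference was -0.74 (SE 0.41) in WT and -0.01 (SE 0.43) in DKO, and the latter changed sign in 7 of 20 alternative settings. High Xist and high Sult3a1 went together on some arrays only. Both DEN RbKO arrays above 5, the DEN DKO array at 5.88 and the DEN p53KO array at 4.27 had high Xist. The DEN DKO array at 3.42, the DEN p53KO array at 3.19 and the untreated WT arrays at 3.09 and 3.19 had it too. Untreated DKO, with the highest group mean of Sult3a1 (4.45), had high Xist on 0 of 3 arrays. With Xist as a covariate the differences from DEN WT were 1.22 (SE 0.35) in RbKO and 1.12 in DKO, and the DEN difference in WT was -0.25 (SE 0.40).

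**Figure D2:**
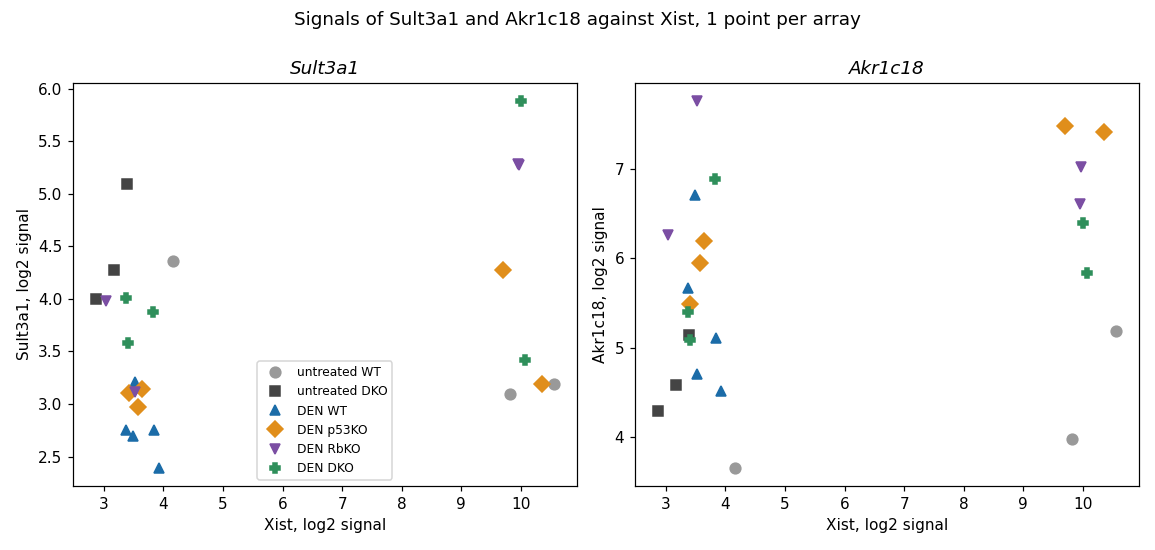
Log2 signals of Sult3a1 (left) and Akr1c18 (right) against that of Xist, 1 point per array, with the group by colour and shape; the 2 DEN RbKO points near a Sult3a1 signal of 5.3 lie on each other. The DEN WT and untreated DKO arrays all lie on the low side of the gap in Xist between 4.15 and 9.70.

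Sult1c2 had its highest mean among the DEN genotypes in p53KO, 6.16 ± 0.31 (SD, n = 5). The DEN p53KO arrays read 6.60, 6.38, 5.93, 5.92 and 5.96, and the DEN WT arrays 5.15, 5.22, 5.57, 6.03 and 5.23, so that only DEN WT replicate 4 reached into the p53KO range. The difference was 0.92 (SE 0.20), and 1.18 within set 1. DEN RbKO, at 4.72, 5.43, 5.24 and 4.77, was -0.41 (SE 0.17) from DEN WT, with -0.18 within set 1 and -0.86 within set 2. DEN DKO, at 5.68, 5.51, 5.60, 5.19 and 5.66, was 0.21 (SE 0.18) from it. Without DEN, the DKO arrays (6.33, 6.04 and 6.20) lay above the WT arrays (5.90, 5.60 and 5.39) by 0.54 (SE 0.21). After DEN, the DKO arrays were below the untreated DKO arrays, with a difference of -0.51 (SE 0.20), and in WT the difference was -0.19 (SE 0.19), with -0.44 within set 1 and 0.24 within set 2.

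**Figure D3:**
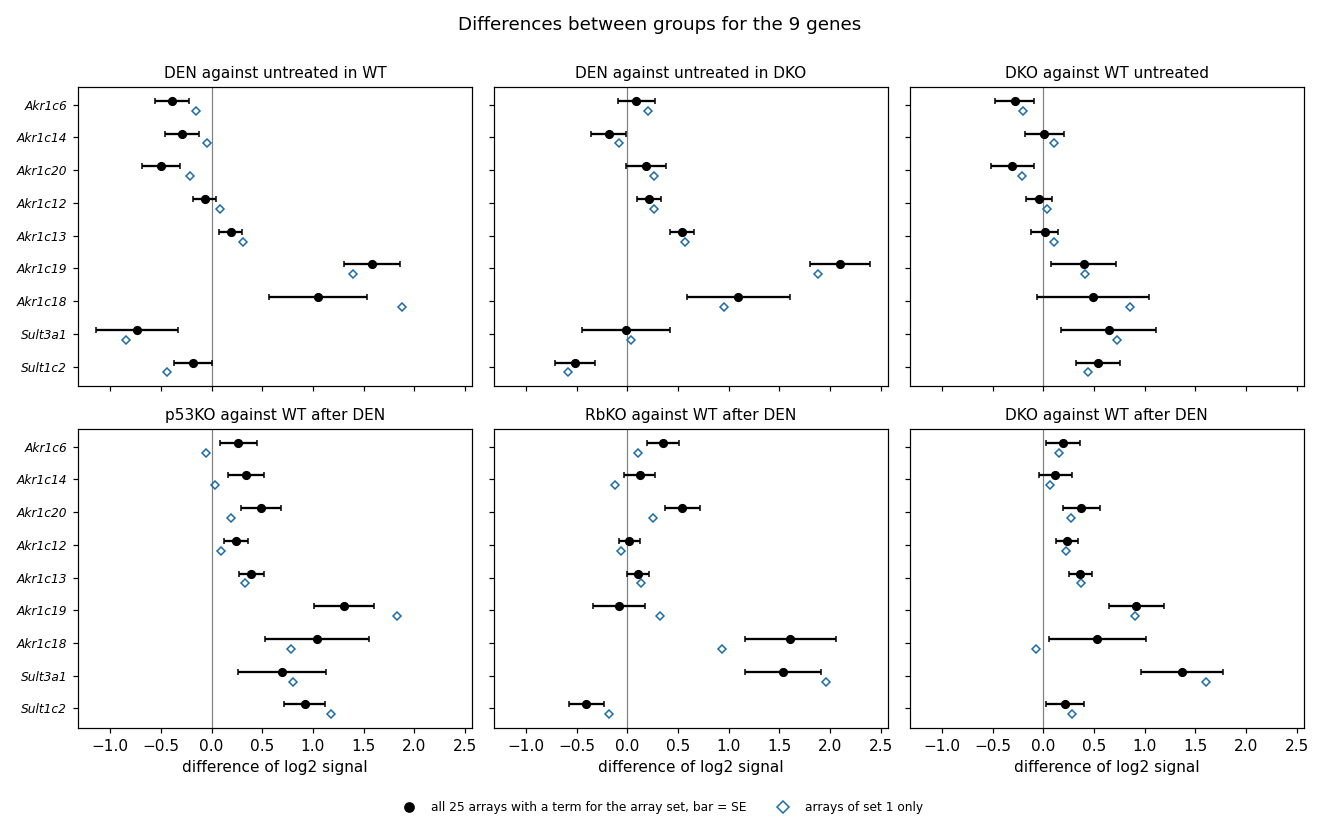
Differences of log2 signal between groups for the 9 genes in 6 comparisons; black points are the fit to all 25 arrays with a term for the array set, bars its standard error, and open diamonds the value from the arrays of set 1 alone. Akr1c19 stands at 1.58 and 2.10 for DEN against untreated in WT and DKO, and the 2 values for Akr1c18 in WT, 1.05 and 1.87, lie well apart.

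Since the 9 genes had been chosen on these contrasts, their calls are set beside the share of all 15951 genes tested and nothing is read from them. At a limma adjusted p under 0.05, 1 of the 9 was called for DEN in WT (3.99% of all genes), 2 for DEN in DKO (21.0%), 2 for p53KO against WT (1.78%), 3 for RbKO against WT (11.4%) and 3 for DKO against WT (11.8%). By limma, none of the 9 was called for untreated DKO against WT (1.11% of all genes, 177 called). Nor was any called for the difference of the DEN responses (9.91%, 1580 called). At an unadjusted p under 0.05 in limma, these 2 comparisons had 1 and 2 of the 9, beside 1917 and 3747 of all 15951 genes. Groups did not overlap for 2 of the 9 for DEN in WT (6.65% of all genes), 3 for DEN in DKO (29.5%), 2 for untreated DKO against WT (26.6%), 2 for p53KO (7.18%), 0 for RbKO (7.81%) and 2 for DKO after DEN (8.11%). The counts rest on single arrays in 3 comparisons. The p53KO count was 0 without DEN WT replicate 2, DEN p53KO replicate 1 or DEN p53KO replicate 2. The RbKO count was 1 without DEN WT replicate 4 or DEN RbKO replicate 4, and the DKO count after DEN was 1 without DEN WT replicate 2, DEN DKO replicate 1 or DEN DKO replicate 3. In other settings, the DKO count after DEN was 0 with only the groups compared or with Xist as a covariate. The RbKO count was 1 without the set term, within set 1 or without set 2. Untreated DKO against WT had 1 call with only the groups compared. DEN in WT had 2 within set 1, without set 2 or with array weights, and DEN in DKO had 4 with array weights. The number of all genes called moved as well in many of these settings. For p53KO it went from 284 to 35 without DEN p53KO replicate 2, and for RbKO from 1811 to 279 without DEN RbKO replicate 4. Further such numbers are given below, but not that for DEN in DKO with array weights. Over the group orders of all 9 genes, 3 of the 45 neighbouring pairs had ranges apart. They were those of Akr1c19 above and DEN p53KO over untreated WT for Sult1c2. This count was not made over all genes, and nothing is read from it.

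The genes with the most similar patterns, by Pearson r over the 25 arrays after removal of the set means, are given as a description, since the arrays share groups and normalization. Akr1c6 and Akr1c20 followed each other (r = 0.96), and both had Slco1b2, a hepatocyte uptake transporter, as the nearest gene (r = 0.91 and 0.96). DEN WT replicate 4, of set 2, was the lowest array for Akr1c6 (10.14) and Akr1c20 (8.77). Slco1b2 was also lowest, at 8.38, on a DEN WT array of set 2. How far these r rest on single arrays was not tested. Akr1c13 was nearest to Gmnn (0.89), Cenph (0.81) and Pclaf (0.81), which code for a replication licensing inhibitor, a centromere protein and a PCNA-binding factor. Akr1c18 was nearest to Sumo2 (0.84), Cdkn2c (0.84) and Supt16 (0.82), and Akr1c19 to Lsm3 (0.84), Fam8a1 (0.83) and Atpif1 (0.82). Akr1c14 was nearest to Rnf13 (0.87), and the sulfotransferase gene Sult2a8 was among its 3 nearest (0.83). The nearest genes of Akr1c12, Sult3a1 and Sult1c2 were Zfp120, Cntln and Ptrhd1, at 0.74, 0.71 and 0.77. Among the 9 genes, Akr1c13 and Akr1c19 had an r of 0.79, Akr1c18 and Akr1c19 0.56, and the lowest r was -0.35, for Akr1c14 and Akr1c19.

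Related genes were listed by family and function, but with earlier results of these data known. Their counts beside the shares of all genes are therefore a description. They were tested with limma, with Benjamini-Hochberg adjustment over all 15951 genes. Of 91 listed genes, 74 were named on the array and 65 passed the filter: 6 other aldo-keto reductases, 9 other cytosolic sulfotransferases, 9 genes of sulfate supply and removal, 21 other steroid dehydrogenases and reductases, and 20 regulators. DEN changed 9 of the 65 in WT and 26 in DKO. In WT, 2 were higher and 7 lower, where 2.08% and 1.91% of all genes were called. In DKO, 2 were higher and 24 lower, where 4.49% and 16.5% of all genes were called. The median difference of the 65 was -0.12 in WT and -0.25 in DKO, beside 0.02 and 0.00 over all genes. The DEN responses differed between the genotypes for 8 of the 65, more positive in DKO for 2 (1.36% of all genes) and more negative for 6 (8.54%). DKO against WT called 1 higher (0.865% of all genes) and 1 lower (0.244%) without DEN. After DEN it called 1 higher (2.69%) and 12 lower (9.14%). RbKO against WT called 11, all lower (6.13%), and p53KO against WT called 2, both lower (1.07%).

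Among the other sulfotransferases, Sult1d1, which sulfates catecholamines and other small phenols, responded to DEN in opposite directions in the 2 genotypes. It read 11.30, 11.34 and 11.19 in untreated WT and 10.94, 10.74, 10.90, 10.05 and 10.42 in DEN WT, where all arrays were lower. It fell by 0.65 (SE 0.14, limma adjusted p = 0.0077), and by 0.46 within set 1. This call was lost without the set term, without set 2 and with only the groups compared (limma adjusted p up to 0.106). In DKO it read 10.62, 10.75 and 10.71 without DEN and 11.05, 11.19, 11.13, 10.89 and 10.93 after it, a rise of 0.54 (SE 0.15, limma adjusted p = 0.0104) that was not called without the set term (limma adjusted p = 0.231). The difference of the responses was 1.19 (SE 0.20, limma adjusted p = 0.000813), and 0.89 within set 1. This call held in each of the 16 fits that left out 1 array and in all 13 other settings. The lower level in untreated DKO than in untreated WT, -0.68 (SE 0.16, limma adjusted p = 0.0339), was lost in all 6 fits that left out 1 array. After DEN, Sult1d1 was higher in DKO than in WT by 0.51 (SE 0.14, limma adjusted p = 0.0182), but by 0.27 within set 1, where it was not called. Sult5a1 also fell after DEN in WT, by 0.74 (limma adjusted p = 0.0221), a call lost in 2 of 8 fits without 1 array (0.221 without untreated WT replicate 1). Sult2a3, a hydroxysteroid sulfotransferase, rose after DEN in DKO by 1.31 (SE 0.32, limma adjusted p = 0.00474) in the fit with the set term. The groups overlapped, at 7.09 to 8.00 without DEN and 7.52 to 9.10 after it. Their plain means were 7.55 and 8.48.

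**Figure D4:**
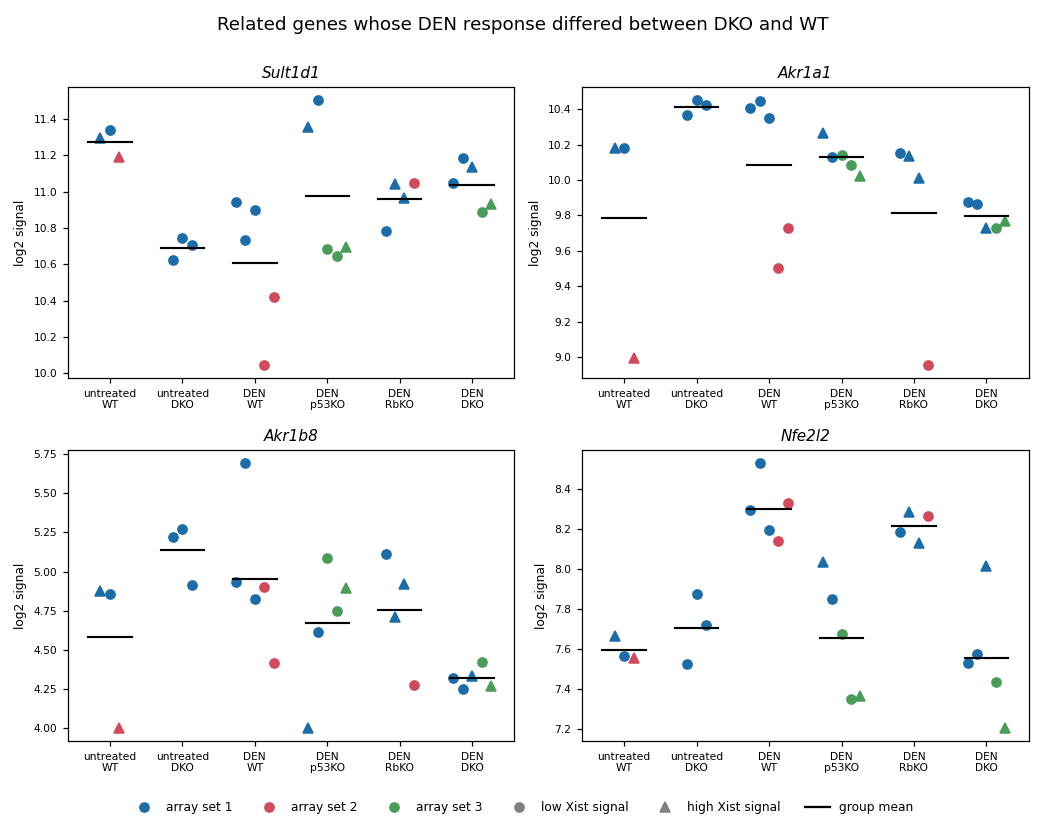
Log2 signals of Sult1d1, Akr1a1, Akr1b8 and Nfe2l2 on each array by group, with the array set by colour, high Xist as triangles and the group mean as a line. After DEN, Sult1d1 is lower than untreated in WT and higher in DKO, and the Nfe2l2 signals of DEN WT, 8.14 to 8.53, lie above those of untreated WT, 7.56 to 7.67.

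Of the other aldo-keto reductases, Akr1a1 (aldehyde reductase) and Akr1b8 (a reductase of the aldose reductase branch) were lower in DEN DKO. Akr1a1 read 10.37, 10.45 and 10.43 in untreated DKO and 9.87, 9.86, 9.73, 9.73 and 9.77 in DEN DKO. It fell by 0.58 (SE 0.11, limma adjusted p = 0.000388), a call lost without the set term (limma adjusted p = 0.10). Akr1b8 fell by 0.94 (SE 0.19, limma adjusted p = 0.00083), from 5.22, 5.27 and 4.92 to 4.32, 4.25, 4.34, 4.42 and 4.27. Their responses differed from those in WT by -0.95 and -1.36 (limma adjusted p = 0.00043 and 0.00196). Akr1a1 read 8.96 to 9.73 on the 4 arrays of set 2, and 9.73 to 10.45 on the other 21. Its call as higher after DEN in WT, by 0.37 (limma adjusted p = 0.0425), was lost in 7 of the 8 fits without 1 array. After DEN, DKO was below WT for both, with differences of -0.65 for Akr1a1 and -1.01 for Akr1b8 (limma adjusted p = 0.000272 and 0.000756). In RbKO, Akr1a1 and Akr7a5 were lower than in WT, at -0.42 and -0.77 (limma adjusted p = 0.007 and 0.0112), and both calls were lost without DEN RbKO replicate 4; Akr7a5 was -0.35 within set 1. The p53KO call of Akr1b8, -0.73 (limma adjusted p = 0.0499), was lost in 7 of 10 such fits.

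Genes of sulfate supply and removal were lower after DEN in DKO for 5 of 9 measured. They were Papss2 and Papss1, which make the donor PAPS, Suox, which makes sulfate from sulfite, Slc26a1, a sulfate transporter, and Sumf1, which activates sulfatases. The Sumf1 and Papss1 calls were lost in 5 and 3 of the 8 fits without 1 array, and each in 3 of 13 other settings. Papss2 fell by 1.02 (SE 0.20, limma adjusted p = 0.000623) and Suox by 1.15 (SE 0.22, limma adjusted p = 0.000422). In WT only Papss2 was called, and fell by 0.88 (SE 0.19, limma adjusted p = 0.00703); without untreated WT replicate 1 its adjusted p was 0.0842. No gene of this list was called for the difference of the DEN responses by limma, and 1 was at an unadjusted p under 0.05. RbKO was lower than WT after DEN for Slc26a1, at -0.77 (SE 0.14, limma adjusted p = 0.0021), and Suox, at -0.85 (SE 0.19, limma adjusted p = 0.00613), the latter with an adjusted p of 0.119 without DEN RbKO replicate 4. In DKO against WT after DEN, Bpnt1, which clears the by-product of sulfation, and Suox were lower, at -0.49 and -0.62 (limma adjusted p = 0.0149 and 0.0474). The Suox call was lost in 6 of 10 fits without 1 array and in 8 of 13 other settings, and Suox was -0.20 within set 1. Bpnt1 was lost in 4 of 13 other settings and was -0.33 within set 1.

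The steroid dehydrogenases showed 7 of 21 lower after DEN in DKO and 1 of 21, Hsd3b2, lower in WT. Hsd3b2, of the family that makes progesterone and related steroids, fell by 0.90 in WT (SE 0.16, limma adjusted p = 0.00208). This call was lost without the set term (limma adjusted p = 0.0618). In DKO, Hsd17b2, which oxidises estradiol and testosterone, fell by 1.27 (SE 0.26, limma adjusted p = 0.000831). Hsd17b10 fell by 0.89 (limma adjusted p = 0.0013) and Hsd3b7, of bile acid synthesis, by 0.78 (limma adjusted p = 0.00411). Hsd17b10 was also lower than in DEN WT in both RbKO, at -0.94 (limma adjusted p = 0.00151), and DKO, at -0.72 (limma adjusted p = 0.00896). The number of related genes called for RbKO fell from 11 to 3 without DEN RbKO replicate 4. In DKO after DEN, Hsd17b7, of cholesterol synthesis, was lower than in WT, at -0.74 (limma adjusted p = 0.00127).

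Of the 20 regulators, 10 fell after DEN in DKO. Ppara, a fatty acid sensor, fell by 1.46 (limma adjusted p = 3.64e-05), Hnf4a, a hepatocyte identity factor, by 1.37 (6.1e-05 in limma) and Stat5b, which carries growth hormone signals, by 1.14 (7.28e-05 in limma). Nr1i2 (PXR, a sensor of foreign compounds) fell by 0.93 (limma adjusted p = 0.000397). In WT, Ghr, the growth hormone receptor, fell by 0.95 (SE 0.16, limma adjusted p = 0.0011) and Esr1, the estrogen receptor, by 0.69 (limma adjusted p = 0.0234), the latter lost in 2 of 8 fits without 1 array (0.182 without untreated WT replicate 1). Hnf4a was called lower in WT as well, at -0.76 (limma adjusted p = 0.0309), but it was -1.36 within set 1 and 0.33 within set 2. Nfe2l2 (Nrf2), a regulator of genes against electrophiles, read 7.67, 7.57 and 7.56 in untreated WT and 8.30, 8.53, 8.20, 8.14 and 8.33 in DEN WT. It rose by 0.71 (SE 0.13, limma adjusted p = 0.00158). In DKO it read 7.52, 7.88 and 7.72 without DEN and 7.53, 7.58, 8.02, 7.43 and 7.20 after it, and these groups overlapped. The responses differed by -0.69 (SE 0.18, limma adjusted p = 0.0177), a call lost in 2 of the 16 fits without 1 array. After DEN, Nr1i3 (CAR), a sensor of foreign compounds, was lower in DKO than in WT, at -1.29 (SE 0.25, limma adjusted p = 0.00162). So was Nfe2l2, at -0.59 (limma adjusted p = 0.00326). Against WT after DEN, limma called 4 of the 20 regulators lower in RbKO and 1 lower in p53KO. Those regulators are not named here.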

How the data were processed

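Liver RNA of 25 samples was amplified, biotin-labelled and read on 1-colour mouse gene arrays of Affymetrix (per the labels). The deposited values are log2 signals made by the authors with RMA in Affymetrix Expression Console 1.1, per the submitters' processing notes; RMA corrects background, normalizes quantiles and summarises each probe set, which narrows differences near background. The genome build and whether all arrays were normalized in 1 run are not given in the sources used here.

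Probe sets were named from the supplied platform table: of 35555, 21789 had 1 symbol, 1620 several and 12146 were unlisted; the last 2 kinds were left out. The brightest probe set per gene was kept (19938 genes), and 15951 passed the filter at the 20th percentile (3.33 log2). With limma 3.58.1 (lmFit, eBayes; R 4.3.3), 1 model with group means and a term for the array set was fitted to the 25 arrays together, with two-sided tests of 7 comparisons and Benjamini-Hochberg adjustment; a gene was called at an adjusted p under 0.05. The calculation was tested on simulated data. Groups came from the labels, with replicates numbered in accession order.

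The 9 genes and all lists (related genes, sex-linked and sex-biased genes, cell type markers) were chosen with earlier results of these data known. Only called related genes are named, at most 4 per list and comparison, and for some comparisons calls are given as counts alone. Up to 3 nearest genes per member are given, by Pearson r. Trp53 has no probe set with a single symbol here and was not analysed. Alternatives covered the set term, the filter, centring, a second quantile normalization, probe set choice, array weights, eBayes settings, the groups fitted, Xist as a covariate and each array left out.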

Additional observations from a re-analysis of the deposited data

Results flagged for a closer look

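Of the 36 combinations of 1 of the 9 genes with a group of 4 or 5 arrays, 4 had an array far from the others by Dixon's criterion. Chance alone marks about 1 in 20 where arrays are alike. These groups mix array sets and the set was not removed, so that rate need not hold here. Akr1c13 was at 7.48 on DEN RbKO replicate 4, with the nearest other of the group at 8.20. That array is of set 2, where Akr1c13 ranged from 7.29 to 7.68. Akr1c14 was at 8.11 on DEN WT replicate 1, with the nearest other at 8.67. Sult3a1 was at 4.27 on DEN p53KO replicate 1 (nearest 3.19) and at 5.88 on DEN DKO replicate 3 (nearest 4.01), both arrays with high Xist.

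The DEN response differed between DKO and WT, by limma's test of the difference, for 8 related genes. It was more positive in DKO for Sult1d1 (1.19) and Hsd3b2 (0.85). It was more negative for Akr1b8 (-1.36), Hsd17b10 (-1.01), Akr1a1 (-0.95), Hsd17b13 (-0.84), Stat5b (-0.77) and Nfe2l2 (-0.69). Stat5b, with an adjusted p of 0.0495 in limma, was lost in 12 of the 16 fits that left out 1 array, and Hsd17b10 was -0.45 within set 1.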

How the results depend on the processing

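No paired analysis was possible because the numbers in the labels are running numbers of the arrays, and replicates were numbered in accession order. No called difference of a related gene changed sign under the 13 other settings run or when 1 array was left out; set 2 alone was not among them, and there Hnf4a was 0.33 for DEN in WT against -0.76 over all arrays. Refits of the 9 genes' differences were set against the SD within groups, which includes differences between array sets. Small differences could change sign within that SD. Akr1c12 and Akr1c14 did so for untreated DKO against WT, in 8 and 6 of 19 alternatives. Of 1415 refits, 1404 moved by less than that SD. The 11 others concern Akr1c18 (DEN in WT 1.87 within set 1; difference of responses -0.92 within set 1, -0.78 without set 2 and -0.73 with Xist), Sult3a1 and Sult1c2 (differences of responses -0.06 and -0.63 with Xist), and Akr1c6 and Akr1c19 (p53KO against WT -0.06 and 1.83 within set 1 or with only those 2 groups).

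Counts of called genes depended on the array set and on single arrays. For all genes and then the related genes, leaving out 1 array gave 221 to 850 and 4 to 14 for DEN in WT, 2396 to 3271 and 19 to 27 for DEN in DKO, 806 to 1684 and 5 to 10 for the difference of responses, 44 to 311 and 0 to 4 for untreated DKO against WT, 35 to 390 and 0 to 3 for p53KO, 279 to 1970 and 3 to 11 for RbKO, and 1398 to 2114 and 11 to 17 for DKO after DEN. The arrays whose removal moved a count of all genes by over 1.5 times were, for DEN in WT, untreated WT replicates 1 (221) and 2 (266), and for the difference of responses, untreated WT replicate 3 (806) and untreated DKO replicate 3 (1051). For p53KO they were DEN WT replicate 2 (174) and DEN p53KO replicates 1 (57) and 2 (35), and for RbKO, DEN WT replicates 4 (1084) and 5 (975) and DEN RbKO replicate 4 (279). For untreated DKO against WT they were all 6 arrays: untreated WT replicates 1 (55), 2 (59) and 3 (311) and untreated DKO replicates 1 (109), 2 (81) and 3 (44). Related genes called for RbKO numbered 3 without DEN RbKO replicate 4, 6 without DEN WT replicate 5, and 7 without DEN WT replicate 4 or DEN RbKO replicates 1 or 2; for DEN in WT they numbered 4 without untreated WT replicates 1 or 2 and 14 without replicate 3.

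For DEN in WT (636 and 9), the counts were 1943 and 22 with array weights, 1747 and 19 in set 1, 142 and 3 without the set term, 203 and 4 with only the groups compared, and 1086 and 16 without set 2. For the difference of responses (1580 and 8), they were 702 for all genes with Xist, 2391 and 13 after centring, 664 and 4 without the set term, 881 for all genes without set 2, and 5 related genes with only those groups or a second quantile normalization. For untreated DKO against WT (177 and 2), they were 94 and 0 with Xist, 1575 and 9 with weights, 891 and 8 in set 1, 271 and 1 after centring, 72 and 0 without the set term, 1112 and 11 with only those groups, 117 and 1 after a second quantile normalization, 515 and 7 without set 2, and 0 related genes with a random block. For p53KO (284 and 2), they were 158 and 0 with Xist, 516 and 5 with a random block, 676 and 5 with weights, 943 and 10 in set 1, 1256 and 7 without the set term, and 154 for all genes with only those groups; related genes numbered 1 with the mean of probe sets, 0 without the filter, 1 after a second quantile normalization and 1 without set 2. For RbKO (1811 and 11), they were 532 and 5 in set 1, 390 and 3 without the set term, 795 and 7 with only those groups, 193 and 2 without set 2, and 7 related genes with Xist. For DKO after DEN (1887 and 13), they were 523 and 5 with only those groups. The cause of these changes was not tested.

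Centring each array on its median moved the median difference of all genes by -0.10 for DEN in DKO and -0.12 for the difference of responses. The share of calls that were lower moved from 78.6% to 90.9% for DEN in DKO, from 22.0% to 10.7% for untreated DKO against WT and from 60.2% to 70.6% for p53KO. Signals near or below the filter limit what can be seen, as for Sult3a1 in DEN WT.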

Other observations

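Genes of the same families that were too dim to test include Akr1c21, the last Akr1c gene of the cluster, with a mean log2 signal of 2.88, and Sult3a2, a neighbour in family to Sult3a1, at 2.36.

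Among 5 genes known for a higher level in female liver, Cyp2b9, a cytochrome P450, fell into separate values that followed the groups only in part. Its DEN DKO arrays, at 3.80 to 9.33, all lay below the untreated DKO arrays, at 10.34 to 10.66. It was at 3.59 on DEN RbKO replicate 4, 3.70 on DEN WT replicate 4, and 3.80, 4.00 and 5.32 on DEN DKO replicates 1, 3 and 5. Xist was high on DEN DKO replicates 3 and 5 and low on the other 3. After DEN in DKO, limma called 1 of the 5 genes higher (A1bg) and 2 lower (Cyp2b9 and Cyp2b13), and of 3 genes known for a higher level in male liver it called 1 higher (Slco1a1). On 2 of the 8 arrays with high Xist, DEN p53KO replicate 5 and DEN DKO replicate 5, the Y-linked gene Eif2s3y was at 4.54 and 4.17, against 2.40 to 2.62 on the other 6.

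Of the cell type markers, limma called as lower after DEN in DKO 4 of 5 for endothelium and 4 of 5 for neutrophils and myeloid precursors. It also called lower 2 of 2 for erythroid cells and 1 of 5 for macrophages, where 16.5% of all genes were called lower. The mean of the neutrophil and myeloid precursor markers was 6.21 to 7.13 in untreated DKO and 4.63 to 5.74 in DEN DKO. In DEN WT it was 4.39 to 5.55. Of 4 hepatocyte markers 1 was called higher and 1 lower. None of 4 cholangiocyte markers and 3 lymphocyte markers was called by limma, with 1 and 0 at an unadjusted p under 0.05. None of the 4 sex-linked genes was called by limma, with 0 at an unadjusted p under 0.05.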
